A study of Mus musculus with 38 samples.

Results

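BV2 is an immortalised mouse microglial line, and GL261 is a mouse glioma line. The genes described here are those whose response to oxygen deprivation differed between BV2 cells grown alone and BV2 cells grown in direct contact with GL261 cells. For each gene, the interaction was the log2 change with hypoxia in BV2 from co-culture minus the log2 change with hypoxia in BV2 monoculture. Genes whose mean CPM (read counts scaled to the library total) was at least 4-fold higher in GL261 monoculture than in BV2 monoculture at either oxygen level were left out as genes typical of glioma RNA. Of 55487 genes counted, 14432 passed the filter on low counts, 2247 of these were left out as higher in GL261, and 12185 were kept. At the edge of the 4-fold rule, Paqr3 (ratio 3.83) and Lnpk (3.86) were kept, and Nol10 (4.02) and Rgs11 (4.03) were left out.

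The series holds 38 RNA-seq libraries, of which the 8 BV2 libraries of the glioma experiment form the comparison: monoculture at 21% oxygen (normoxia), monoculture at less than 0.1% oxygen (hypoxia), and co-culture at each of these levels, with 2 libraries per group. Co-cultured BV2 cells had been seeded onto GL261 cells at 1 BV2 cell to 2 glioma cells. These GL261 cells stably expressed pEGFP-N1, a green fluorescent protein vector. All groups were kept for 16 h in medium with 2% serum, and all cells were fixed in glyoxal. How the cell types were separated after co-culture is not given in the sources used here, and each line is a single immortalised line. The labels state biological replicates. With 2 libraries per group, p-values measure only the spread between these libraries.

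Hypoxia acts on a cell by several routes. Stabilised hypoxia-inducible factors (HIF) switch on glycolysis and oxygen-delivery genes. Proteins that cannot be folded in the endoplasmic reticulum (ER) trigger the unfolded protein response (UPR), in which the sensors Ire1, Perk and Atf6 raise ER chaperones. Perk and the amino acid sensor Gcn2 also feed the integrated stress response (ISR), in which the factor Atf4 raises amino acid synthesis and transfer RNA charging. In microglia, hypoxia also touches inflammatory and lineage genes, which glioma cells are known to reshape.

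The 8 libraries held 13548800 to 23568300 counts (to 6 significant digits), so that 3 counts correspond to 0.127 to 0.221 CPM. The summed level of 16 myeloid marker genes was 3788 to 5174 CPM in the BV2 libraries and 2.64 to 5.22 CPM in GL261 monocultures. Csf1r, the receptor for the microglial survival factor, stood at 519 and 604 CPM in normoxic monoculture, whereas Tmem119 and C1qa, markers of microglia in the brain, were near 0: they reached at most 2.95 and 1.18 CPM in any BV2 library, without TMM scaling. The summed level of 16 glioma and neural lineage markers was 1.54 to 4.85 CPM in BV2 monocultures, 32.0 and 49.5 CPM in normoxic co-culture and 78.2 and 96.0 CPM in hypoxic co-culture. Over 230 genes found almost only in GL261, the share of glioma RNA was estimated at 0.951% and 0.568% in the normoxic co-culture libraries and 2.07% and 2.36% in the hypoxic ones, against at most 0.0536% in monoculture. In such bulk libraries, fewer cells of a type and less RNA per cell cannot be told apart. Calls that were lost when the co-culture counts were lowered by that share are named below. That refit also changes the spread and the adjusted p-values. A lost call therefore does not show that the counts of a gene came from glioma RNA.

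The hypoxia effect differed between the culture forms for 254 of the 12185 genes kept, or 2.08% (edgeR quasi-likelihood F test, Benjamini-Hochberg adjusted p under 0.05 over all 14432 genes tested). It was higher in co-culture for 115 genes (0.944%) and lower for 139 genes (1.14%). Among the 115, an existing rise was enlarged in 47, a rise was gained in 28, a fall was lost in 22, a fall turned into a rise in 10 and a fall was reduced in 8. Among the 139, a fall was enlarged in 44, a rise was reduced in 31, a fall was gained in 27, a rise was lost in 23 and a rise turned into a fall in 14. Here "gained" and "lost" say only that the effect passed the test in one culture form and not in the other, while the difference itself passed the test in every gene counted. In all 254, the hypoxia differences of the libraries did not overlap between the culture forms, which held for 34.9% of the genes kept. These are small numbers against the hypoxia effect itself, which passed the test in 31.5% of genes upward and 31.8% downward in monoculture, and in 33.5% and 34% in co-culture. The counts depended on single libraries. The number of genes with a higher effect was 4 without hypoxic monoculture replicate 1, 15 without normoxic co-culture replicate 2, 16 without normoxic monoculture replicate 2, 28 without normoxic co-culture replicate 1 and 49 without hypoxic co-culture replicate 1. The number with a lower effect fell to 30 without normoxic co-culture replicate 2, 34 without normoxic monoculture replicate 2, 63 without hypoxic monoculture replicate 1, 79 without normoxic co-culture replicate 1 and 86 without normoxic monoculture replicate 1. That number was 452 without hypoxic monoculture replicate 2, 304 without hypoxic co-culture replicate 1 and 251 without hypoxic co-culture replicate 2. Of the 56 genes that the naming rule picked, 38 missed the threshold without normoxic co-culture replicate 2, 37 without normoxic monoculture replicate 2, 31 without hypoxic monoculture replicate 1, 23 without normoxic co-culture replicate 1, 16 without normoxic monoculture replicate 1, 10 without either hypoxic co-culture library and 5 without hypoxic monoculture replicate 2. None of the 56 changed direction. Aars, Aldh1l2, Apobec1, Cd72, Dnajb14, Fgd2, Lilrb4a, Pdia4, Wars and Zfp36 passed it in every setting.

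**Figure D1:**
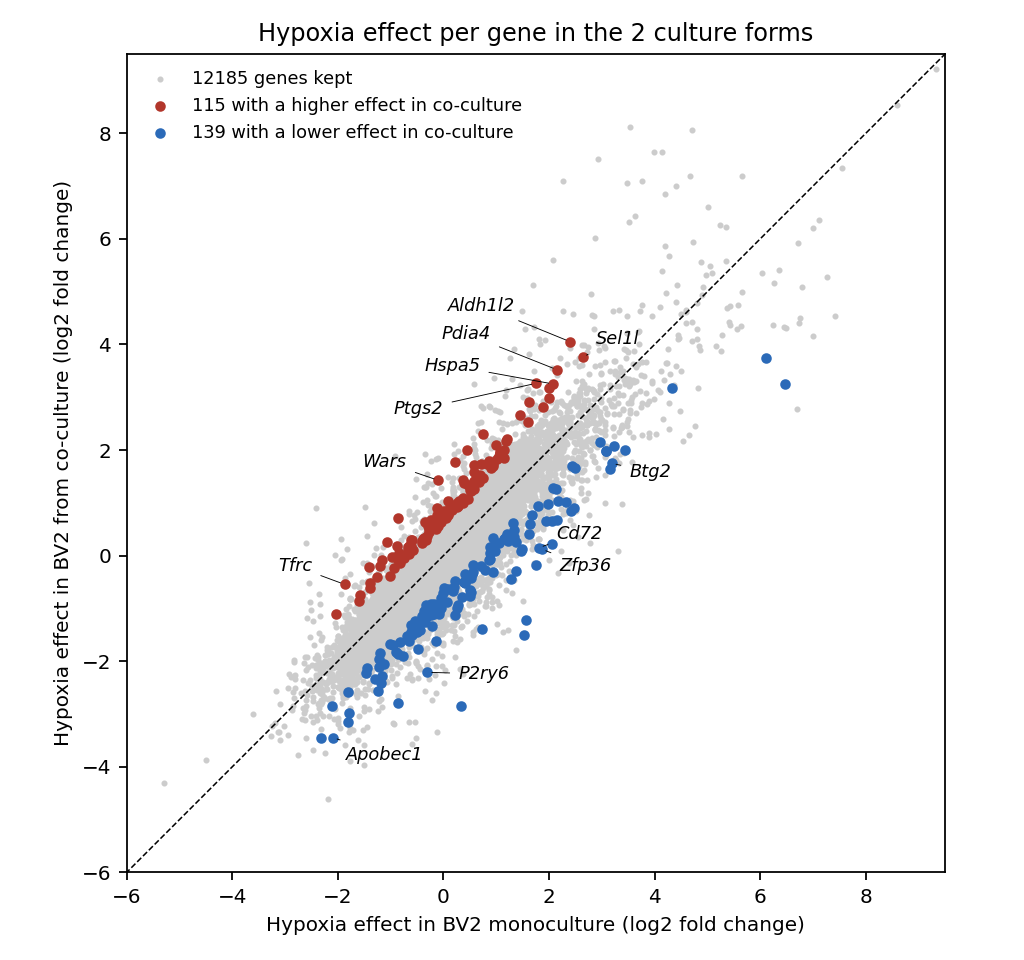
Hypoxia effect of each of the 12185 genes kept in BV2 monoculture (horizontal axis, log2 fold change) and in BV2 from co-culture (vertical axis, log2 fold change). The dashed line marks equal effects, red points are the 115 genes with a higher effect in co-culture and blue points the 139 with a lower effect. Most genes lie along the line, and Pdia4, Hspa5 and Sel1l rise in both culture forms but more in co-culture.

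**Figure D2:**
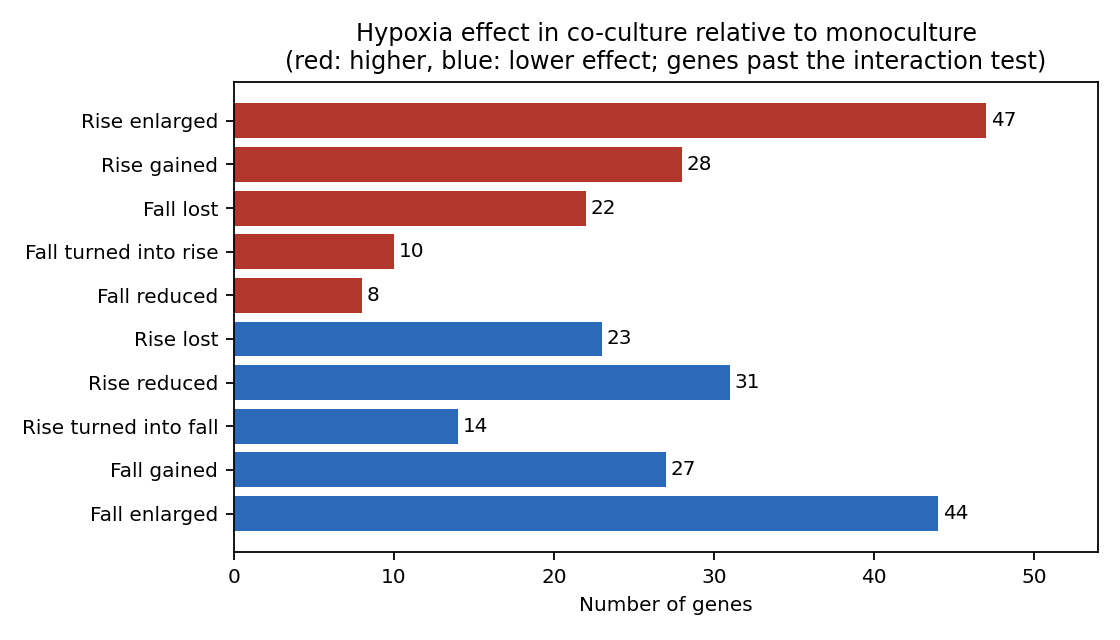
Number of genes past the interaction test in each class of change (horizontal axis, number of genes, 1 bar per class). Enlarged rises (47) lead the genes with a higher effect in co-culture, and enlarged falls (44) lead those with a lower effect.

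The co-culture effect at each oxygen level shows where the difference arose. Of the 115 genes with a higher effect, 66 differed between co-culture and monoculture in hypoxia only, 33 in normoxia only, 12 at both levels and 4 at neither. In hypoxia 78 of them were higher in co-culture, and in normoxia 45 were lower. Of the 139 genes with a lower effect, 85 differed in hypoxia only, 38 in normoxia only, 15 at both levels and 1 at neither. In hypoxia 99 of them were lower in co-culture, and in normoxia 49 were higher. Over all genes kept, 3.84% were higher and 8.71% lower in hypoxic co-culture, and 3.15% were higher and 10.3% lower in normoxic co-culture. The co-culture contrasts use the same libraries as the interaction and are a description of it.

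The clearest group among the genes with a higher effect was the UPR. Of 22 list genes kept, 9 had a higher hypoxia effect in co-culture and 0 a lower one, against 0.944% and 1.14% of all genes kept. The interaction was above 0 for 21 of the 22, with a median of 0.74 on the log2 scale, against 0.01 over all genes kept. The median hypoxia effect of the list was 1.65 in monoculture and 2.53 in co-culture. The 9 genes were the ER chaperones Hspa5 (BiP), Hsp90b1 (Grp94) and Hyou1, the co-chaperones Dnajc3 and Sdf2l1, the disulfide isomerases Pdia4 and Pdia6, the folding factor Creld2, and Sel1l, a subunit of the complex that exports misfolded proteins for degradation. Without the libraries in turn, the count ran from 1 (without hypoxic monoculture replicate 1) to 15 (without hypoxic monoculture replicate 2). It was 2 without normoxic monoculture replicate 2, and 4 without either normoxic co-culture library or without hypoxic co-culture replicate 2. With the estimated glioma share subtracted it was 5, while the median interaction was then 0.76.

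Before the values, the promoters of the UPR genes are shown because they carry a sequence by which this response is known to act. The ER stress response element (ERSE) was searched on both strands as CCAAT, any 9 bases and CCACG, in the 250 bases before the gene start (RefSeq, GRCm38.p6). It was found for 5 of the 85 genes with a higher effect that had a promoter in the table (5.88%), for 0 of 98 with a lower effect, and for 13 of 8481 genes kept (0.153%). Among the UPR list genes it was found for 8 of 18, and among all 32851 promoters in 0.113%. The motif was chosen after the changed genes were known, so these shares are a description. The 5 promoters follow, 5′ to 3′ on the strand of the gene and ending at the base before its start, with the ERSE match in capitals. They lie at chr10:86705445-86705694 (minus strand), chr2:34771840-34772089, chr15:88819396-88819645, chr12:17266339-17266588 and chr14:118937682-118937931 (plus strand).
Hsp90b1: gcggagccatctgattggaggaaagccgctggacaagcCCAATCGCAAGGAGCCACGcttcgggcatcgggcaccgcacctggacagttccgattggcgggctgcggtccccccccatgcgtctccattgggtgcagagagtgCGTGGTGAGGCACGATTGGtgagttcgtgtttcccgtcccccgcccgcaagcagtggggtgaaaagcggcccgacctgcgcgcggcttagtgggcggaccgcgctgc
Hspa5: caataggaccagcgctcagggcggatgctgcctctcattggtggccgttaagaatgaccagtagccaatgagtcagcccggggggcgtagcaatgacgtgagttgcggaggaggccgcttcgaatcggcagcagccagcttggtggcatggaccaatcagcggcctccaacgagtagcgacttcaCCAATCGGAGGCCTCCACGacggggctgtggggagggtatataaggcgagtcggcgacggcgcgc
Creld2: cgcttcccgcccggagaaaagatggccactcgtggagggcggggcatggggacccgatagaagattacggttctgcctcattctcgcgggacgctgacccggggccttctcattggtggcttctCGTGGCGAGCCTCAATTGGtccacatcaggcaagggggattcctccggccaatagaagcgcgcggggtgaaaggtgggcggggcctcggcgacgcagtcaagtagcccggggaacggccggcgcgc
Pdia6: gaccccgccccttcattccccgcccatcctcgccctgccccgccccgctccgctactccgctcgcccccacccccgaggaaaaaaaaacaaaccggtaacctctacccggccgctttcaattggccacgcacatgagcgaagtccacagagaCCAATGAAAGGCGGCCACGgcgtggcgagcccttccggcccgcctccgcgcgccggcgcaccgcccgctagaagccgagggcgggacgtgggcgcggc
Dnajc3: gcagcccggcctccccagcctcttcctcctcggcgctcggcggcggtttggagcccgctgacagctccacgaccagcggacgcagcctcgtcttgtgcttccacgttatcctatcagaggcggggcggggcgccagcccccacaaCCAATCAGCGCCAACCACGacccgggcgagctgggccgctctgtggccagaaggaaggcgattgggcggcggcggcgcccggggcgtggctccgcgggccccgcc
Hsp90b1 held 2 matches, 1 on each strand, and in Creld2 the match was on the opposite strand. In Hspa5 the match spanned positions -65 to -47 before the RefSeq start. GENCODE, from which gene positions are given, places some starts elsewhere: its Hspa5, Hsp90b1 and Pdia6 genes begin within the RefSeq windows printed here, and in Hspa5 the match lies inside the GENCODE gene. The other 3 UPR list genes with a match were Calr, Canx and Syvn1, whose interactions were 0.91 (adjusted p = 0.0504), 0.71 (adjusted p = 0.0989) and 0.67 (adjusted p = 0.0781) by edgeR and did not pass the threshold.

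Hspa5 (ENSMUSG00000026864, mm10 chr2:34771970-34777547), the main ER chaperone of the Hsp70 family, was at 1119.7 and 1411 CPM in normoxic monoculture and 4690.3 and 5975 CPM in hypoxic monoculture. In co-culture it was at 1081 and 1175 CPM in normoxia and 9539 and 11958 CPM in hypoxia. The normoxic groups overlapped, and both hypoxic co-culture libraries lay above every other library. The hypoxia effect was 2.08 in monoculture and 3.25 in co-culture (log2), an interaction of 1.18 (SE 0.23, edgeR adjusted p = 0.0216). Pdia4 (mm10 chr6:47796141-47813430), a disulfide isomerase that shapes secreted proteins, was at 177 and 198 CPM in normoxic and 682 and 989.8 CPM in hypoxic monoculture. It was at 148 and 179.6 CPM in normoxic and 1639.7 and 2122 CPM in hypoxic co-culture. This was the largest interaction of the UPR list, 1.36 (SE 0.24, edgeR adjusted p = 0.0141), and again only the hypoxic groups separated by culture form. Hsp90b1, the ER member of the Hsp90 family, rose from 626 and 769 CPM to 1785 and 2520.2 CPM in monoculture. In co-culture it rose from 566 and 568 CPM to 3844 and 4732 CPM, with an interaction of 1.29 (SE 0.23, edgeR adjusted p = 0.0141). Sel1l, like Hsp90b1, had lower normoxic values in co-culture, 102 and 108 CPM against 133 and 169 CPM in monoculture. The normoxic difference passed the test for neither gene (edgeR adjusted p = 0.0846 for Sel1l and 0.233 for Hsp90b1). The hypoxic level of Sel1l was 676 and 1198 CPM in monoculture and 1369.9 and 1468 CPM in co-culture. The 2 hypoxic monoculture libraries of Sel1l stood far apart, and its interaction of 1.12 (SE 0.28) was close to the threshold (edgeR adjusted p = 0.0458). For the others, the interaction was 1.22 (SE 0.24) for Hyou1, 1.19 (SE 0.27) for Creld2, 1.01 (SE 0.24) for Pdia6, 0.99 (SE 0.25) for Dnajc3 and 0.92 (SE 0.20) for Sdf2l1, with edgeR adjusted p from 0.0232 for Hyou1 to 0.0479 for Dnajc3. Creld2, Sel1l, Pdia6 and Dnajc3 lost their call when the estimated glioma share was subtracted. Hspa5, Hsp90b1, Hyou1 and Pdia4 kept theirs under every alternative that used all 8 libraries, and of these Pdia4 also kept it when each library was left out in turn.

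The transcription factors of these pathways given here did not pass the interaction test. Atf6, a sensor that becomes a factor when cut, came nearest, with an interaction of 0.76 (SE 0.21, edgeR adjusted p = 0.0638). Xbp1, the factor made active by Ire1, had an interaction of 0.12 (SE 0.17, edgeR adjusted p = 0.746), and its transcript level does not show its splicing. Ddit3 (Chop), the pro-apoptotic factor of prolonged stress, was at 6.37 to 8.37 CPM in all 4 normoxic libraries, at 139 and 187 CPM in hypoxic monoculture and at 150.0 and 237 CPM in hypoxic co-culture. Its hypoxia effect was thus 4.50 in monoculture and 4.58 in co-culture, an interaction of 0.08 (SE 0.30, edgeR adjusted p = 0.92). Atf4 rose by 1.12 and 1.09 (interaction -0.03, SE 0.17, edgeR adjusted p = 0.947).

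**Figure D3:**
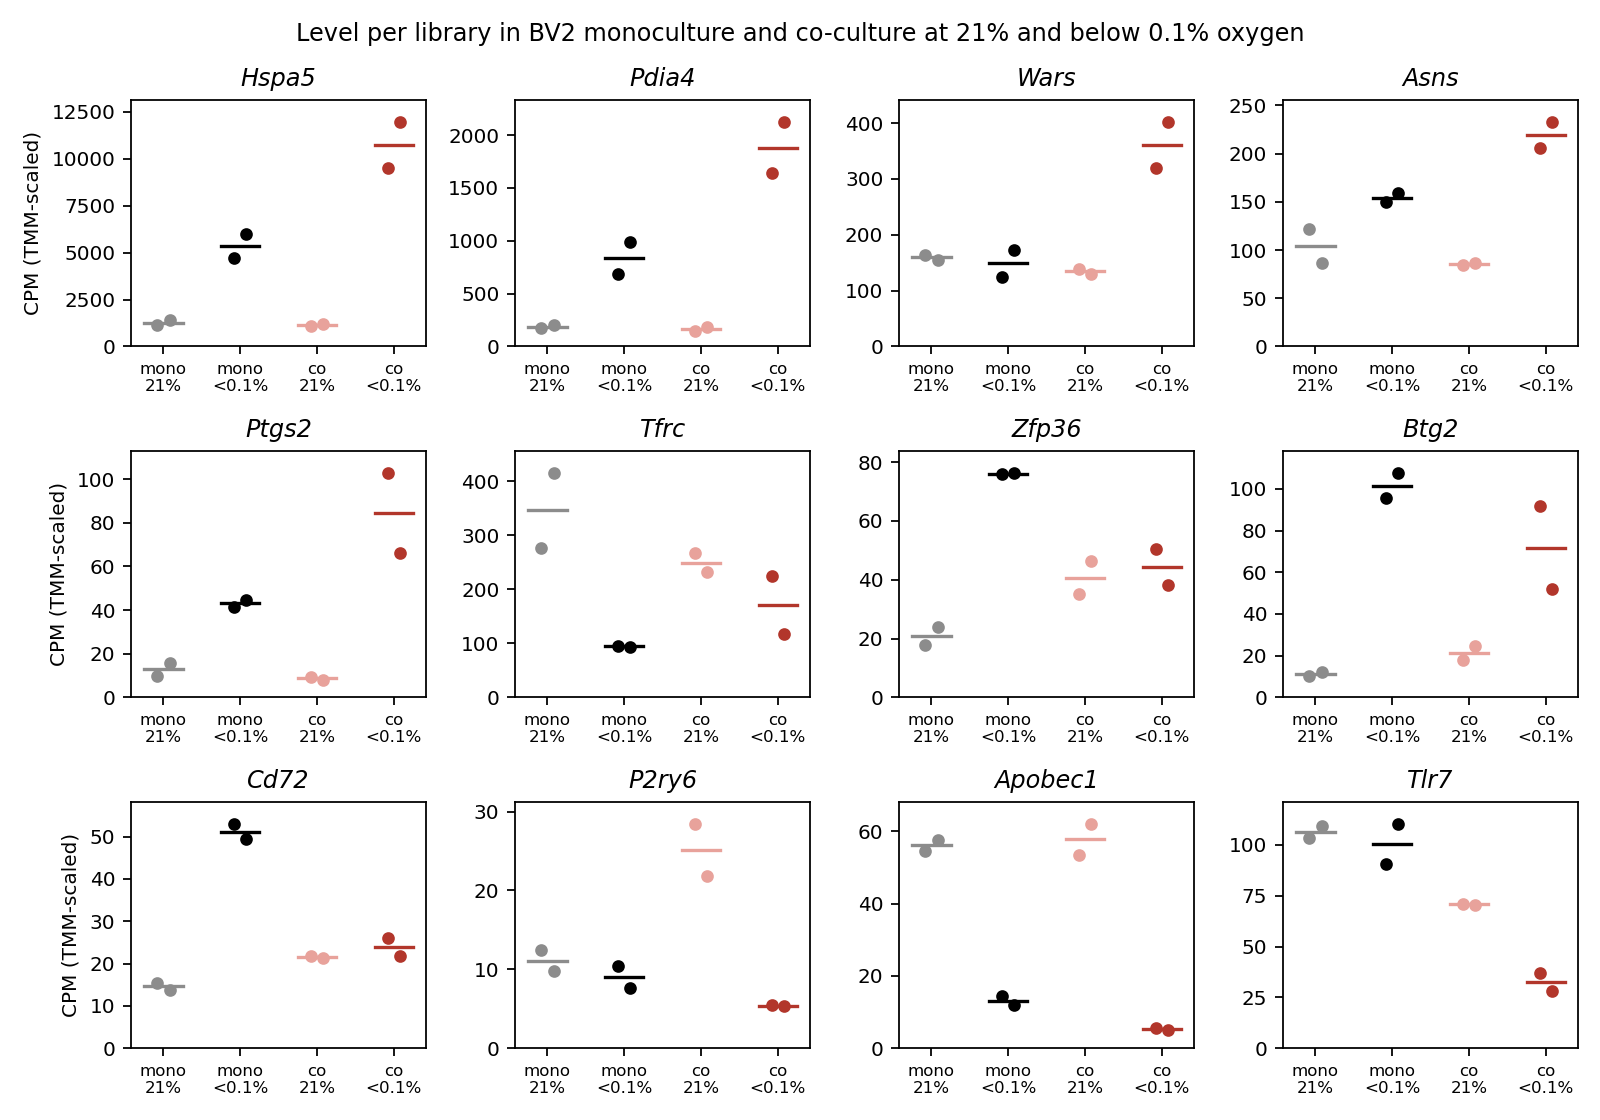
Level of 12 genes in each of the 8 BV2 libraries (vertical axes, TMM-scaled CPM from 0; horizontal axes, monoculture and co-culture at 21% and below 0.1% oxygen; points, libraries; bars, means of 2). Hspa5, Pdia4, Wars and Asns are highest in hypoxic co-culture, whereas Cd72 and Zfp36 are highest in hypoxic monoculture.

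The ISR list also held genes with a higher effect in co-culture. Of 23 genes kept, 4 had a higher hypoxia effect in co-culture and 0 a lower one, against 0.944% and 1.14% of all genes kept. Of the 23, 19 lay above 0, against 6223 of 12185 genes kept. The median interaction was 0.42, against 0.01 over all genes kept. The 4 were Wars, Aars and Gars, which charge transfer RNA with tryptophan, alanine and glycine, and Asns, which makes asparagine. The count was 2 without either normoxic co-culture library, either hypoxic monoculture library, normoxic monoculture replicate 1 or hypoxic co-culture replicate 2, and it was 2 with the glioma share subtracted, where Gars and Asns lost their call. Below 0 lay Slc7a11, the cystine carrier (-0.76, SE 0.35, edgeR adjusted p = 0.24), Cebpb, Slc1a5 and Atf4.

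Wars (mm10 chr12:108860030-108894174) was the clearest gained rise. It was at 164 and 155 CPM in normoxic and 125 and 172 CPM in hypoxic monoculture, groups that overlap. In co-culture it was at 138 and 129.9 CPM in normoxia and 319.7 and 402 CPM in hypoxia. The hypoxia effect was -0.10 in monoculture and 1.43 in co-culture, an interaction of 1.53 (SE 0.21, edgeR adjusted p = 0.00296). Aars was at 361 and 349.8 CPM in normoxic and 426 and 489 CPM in hypoxic monoculture, and went from 289 and 296 CPM to 825 and 766 CPM in co-culture. Its interaction of 1.08 (SE 0.16, edgeR adjusted p = 0.00597) and that of Wars remained past the threshold under every alternative run. Of the 75-base words in the exons of Aars, 13.15% also occur in Exosc6, a gene that overlaps it. Asns rose from 122 and 86.7 CPM to 149.9 and 159 CPM in monoculture and from 84.0 and 86.9 CPM to 206 and 233 CPM in co-culture (interaction 0.79, SE 0.20, edgeR adjusted p = 0.0477). Gars had an interaction of 0.68 (SE 0.17, edgeR adjusted p = 0.0433). Aldh1l2, a mitochondrial folate enzyme outside the lists, had the largest positive interaction of the genes named by rule, 1.65 (SE 0.27, edgeR adjusted p = 0.0106). It was at 43.9 and 29.6 CPM in normoxic monoculture but 16.1 and 14.99 CPM in normoxic co-culture, and at 158 and 230.0 CPM against 232 and 284 CPM in hypoxia. Its co-culture effect passed the test in normoxia only, where it fell by 1.24. In GL261 monoculture Aldh1l2 averaged 118 CPM in normoxia and 502 CPM in hypoxia, without TMM scaling. An estimated 6.47% of its normoxic and 6.54% of its hypoxic co-culture counts came from glioma RNA. It kept its call with the glioma share subtracted.

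The Atf4 target promoters are shown for the same reason. The core of the CARE element (C/EBP-Atf response element), TGATGNAA on both strands, was found in 4 of the 85 promoters of genes with a higher effect (4.71%), 3 of 98 with a lower effect (3.06%), 2.44% of those kept and 5 of 19 of the ISR list. Besides Aars, Gars and Asns it was found in Cdc42bpa, a cytoskeletal kinase. The stretches below end at the base before the start and hold the match in capitals (RefSeq, GRCm38.p6; Aars chr8:111033680-111033787 and Gars chr6:55037921-55038000 on the plus strand, Asns chr6:7693210-7693282 on the minus strand). In Aars and Gars the match is on the strand opposite to the gene. The Aars stretch lies inside the GENCODE gene, and the GENCODE Asns gene begins within its stretch.
Aars: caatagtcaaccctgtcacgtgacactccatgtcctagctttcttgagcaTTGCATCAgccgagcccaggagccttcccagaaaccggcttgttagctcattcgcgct
Gars: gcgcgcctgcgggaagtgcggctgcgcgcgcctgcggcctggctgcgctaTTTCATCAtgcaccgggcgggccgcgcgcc
Asns: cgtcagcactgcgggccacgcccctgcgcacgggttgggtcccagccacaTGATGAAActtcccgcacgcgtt
A motif this short occurs often, and a match does not show that a factor binds there.

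Other genes with a higher effect in co-culture, by an enlarged or gained rise or a reduced or lost fall, came from other pathways. Ptgs2, the inducible cyclooxygenase that starts prostaglandin synthesis, was at 9.69 and 15.9 CPM in normoxic and 41.3 and 44.7 CPM in hypoxic monoculture. With glioma cells it stood at 9.47 and 8.16 CPM in normoxia and 103 and 66.0 CPM in hypoxia, above all monoculture libraries, with an interaction of 1.51 (SE 0.31, edgeR adjusted p = 0.0232). Pdia3, an ER isomerase that also loads peptides onto MHC class I, had an interaction of 0.89 (SE 0.22, edgeR adjusted p = 0.0471), and the cytokine receptor kinase Jak1 had one of 0.70 (SE 0.16, edgeR adjusted p = 0.0367). Tfrc, the transferrin receptor through which cells take up iron, fell from 277 and 415 CPM to 95.5 and 93.7 CPM in monoculture. In co-culture it was at 267 and 232 CPM in normoxia and 225 and 117 CPM in hypoxia, libraries that lay far apart. The fall was reduced from 1.87 to 0.55 on the log2 scale in size (interaction 1.33, SE 0.32, edgeR adjusted p = 0.0433), and an estimated 4.78% of its hypoxic co-culture counts came from glioma RNA. Taf4b, a subunit of a general transcription factor, lost its fall (interaction 1.20), and Crim1, a transmembrane regulator of growth factors, gained a rise (interaction 1.55). Tfrc, Taf4b, Crim1, Jak1 and Pdia3 did not pass the threshold with the glioma share subtracted. Zyg11b and Epg5, the second needed for autophagosomes to fuse with lysosomes, had interactions of 1.13 and 1.11 and passed the threshold with it subtracted.

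Genes outside the lists included further ER proteins, chosen here after their values were seen. Pdia5, Dnajc10, Lman1, Uggt1, Ganab and Hspa13 all had a higher hypoxia effect in co-culture. ER proteins outside the lists were not counted, so these genes give no share. The co-chaperone Dnajb14 went the other way, with an interaction of -1.27. Uggt1, which checks the folding of glycoproteins, was at 169.7 and 214 CPM in normoxic and 168 and 236 CPM in hypoxic monoculture, and at 144 and 133 CPM and then 285 and 284 CPM in co-culture. Pdia5 was at 28.1 to 32.2 CPM in monoculture at either oxygen level, at 30.4 and 35.8 CPM in normoxic co-culture and at 55.2 and 64.6 CPM in hypoxic co-culture. Both had no rise past the test in monoculture.

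**Figure D4:**
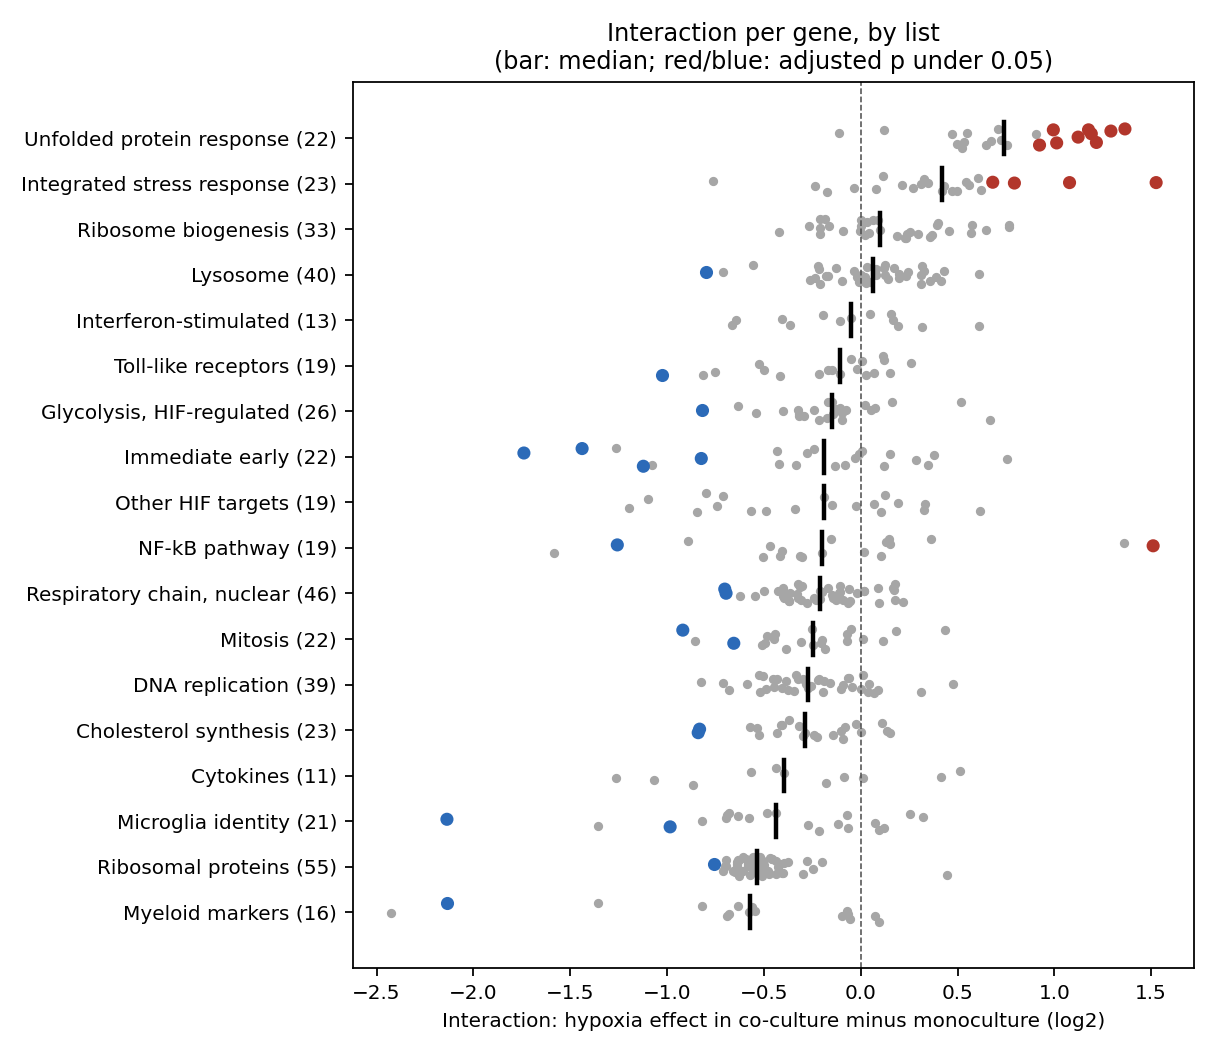
Interaction of each gene kept in 18 lists (horizontal axis, log2; number of genes in brackets; bar, median of the list; red or blue, adjusted p under 0.05 with a higher or lower effect in co-culture). The UPR list has the highest median (0.74) and 9 red points, and the immediate early list has 4 blue points.

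The genes with a lower effect had a different make-up. Immediate early genes are switched on within minutes of a signal and include factors that end the signal. Of 22 kept, 4 responded less to hypoxia in co-culture and 0 more, while the median interaction was only -0.19 and 7 lay above 0. The 4 were Zfp36, which destabilises cytokine mRNA, Btg2, which slows division, the AP-1 subunit Junb and the phosphatase Dusp2. The count was 1 without normoxic monoculture replicate 1 or normoxic co-culture replicate 2, and 2 without normoxic monoculture replicate 2. Zfp36 (mm10 chr7:28376784-28380253) was at 17.9 and 24.0 CPM in normoxic and 75.8 and 76.3 CPM in hypoxic monoculture. Co-cultured cells had 35.1 and 46.3 CPM in normoxia and 50.6 and 38.3 CPM in hypoxia, groups that overlap. The interaction was -1.74 (SE 0.23, edgeR adjusted p = 0.00296), made up of a higher level in normoxic co-culture (0.96) and a lower one in hypoxic co-culture (-0.77). Btg2 rose from 10.1 and 12.3 CPM to 95.7 and 108 CPM in monoculture, and from 18.1 and 24.5 CPM to 91.8 and 52.0 CPM in co-culture (interaction -1.44, SE 0.30, edgeR adjusted p = 0.0263). Junb reached a like level in hypoxia, 346 and 301 CPM in monoculture and 375 and 308 CPM in co-culture, but began higher in normoxic co-culture, at 98.4 and 117 CPM against 54.1 and 61.3 CPM. Its smaller rise (interaction -0.82, SE 0.19, edgeR adjusted p = 0.0353) therefore lay at the normoxic end. Dusp2 gained a fall (interaction -1.12, SE 0.22, edgeR adjusted p = 0.0232). The AP-1 motif TGANTCA, also chosen after the calls, was found in 14.3% of the promoters of genes with a lower effect, 5.88% of those with a higher effect and 5.42% of those kept. It was also in 16.7% of the UPR list and 10.5% of the ISR list, and in 6.75% of all promoters of the table. The core of the hypoxia response element, ACGTG, was found in 36.5% of promoters of genes with a higher effect, 18.4% of those with a lower effect and 25.9% of those kept, and in 16.6% of all. Both motifs were searched on both strands, and an ERSE followed by T also holds the latter.

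Surface receptors were among the genes with a lower effect named by rule. Cd72 (mm10 chr4:43446462-43454628), an inhibitory receptor best known from B cells, was at 15.3 and 13.9 CPM in normoxic and 52.96 and 49.4 CPM in hypoxic monoculture. In co-culture it was at 21.9 and 21.3 CPM in normoxia and 26.1 and 21.8 CPM in hypoxia, so that the rise of 1.81 in monoculture became 0.15. The interaction of -1.66 (SE 0.18, edgeR adjusted p = 0.00102) remained past the threshold under every alternative run. Lilrb4a and Lilr4b, inhibitory receptors of myeloid cells, had reduced rises with interactions of -1.57 and -1.31, but 39.78% and 15.04% of their 75-base exon words occur in other genes, Lilrb4a being the main partner of Lilr4b, so their counts are uncertain. Acod1, which makes the antimicrobial metabolite itaconate, was at 3.06 and 2.72 CPM in normoxic monoculture and 16.9 and 12.5 CPM in normoxic co-culture. In hypoxia it was at 8.85 and 6.26 CPM against 15.9 and 7.82 CPM (interaction -1.68, SE 0.40, edgeR adjusted p = 0.043). It missed the threshold with the glioma share subtracted, although an estimated 0.0396% of its hypoxic co-culture counts came from glioma RNA. Fxyd2, a sodium pump subunit, kept part of its rise (2.14 in monoculture and 0.67 in co-culture).

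P2ry6 (mm10 chr7:100937630-100974649), the receptor for UDP that drives microglial phagocytosis, gained a fall. It was at 12.4 and 9.76 CPM in normoxic and 10.4 and 7.63 CPM in hypoxic monoculture, groups that overlap. Co-cultured cells had 28.4 and 21.9 CPM in normoxia and 5.46 and 5.37 CPM in hypoxia, the highest and the lowest of the 4 groups. The interaction was -1.91 (SE 0.28, edgeR adjusted p = 0.00485). Tlr7, the endosomal receptor for single-stranded RNA, was at 90.4 to 110.2 CPM in the 4 monoculture libraries, at 71.1 and 70.3 CPM in normoxic co-culture and at 37.2 and 28.3 CPM in hypoxic co-culture (interaction -1.02, SE 0.19, edgeR adjusted p = 0.0178). It was the 1 gene with a lower effect among 19 Toll-like receptor pathway genes kept, against 1.14% of all genes kept. The fatty acid carriers Fabp4 and Fabp5 also gained or enlarged a fall, with interactions of -0.96 and -0.83. Apobec1, an RNA-editing enzyme of macrophages, fell from 54.7 and 57.5 CPM to 14.4 and 11.9 CPM in monoculture and from 53.5 and 62.0 CPM to 5.57 and 5.02 CPM in co-culture. Its normoxic groups overlapped, and its enlarged fall (interaction -1.35, SE 0.20, edgeR adjusted p = 0.00648) remained past the threshold under every alternative run. The same held for Fgd2, an activator of Cdc42 (-1.32), and for the co-chaperone Dnajb14 (-1.27).

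The microglia identity list had 21 genes kept, of which 2 had a lower effect and 0 a higher one, against 1.14% and 0.944% of all genes kept. Cx3cr1, the fractalkine receptor, was among the 2. The median interaction of the list was -0.44, and 16 of 21 lay below 0. By DESeq2 5 of the 21 had a lower effect, but DESeq2 called 296 genes lower in all, against 139 by edgeR. Cx3cr1 was low throughout, at 0.85 to 2.56 CPM, and lost its call with the glioma share subtracted. An estimated 0.14% of its hypoxic co-culture counts came from glioma RNA. The shorter list of 16 myeloid markers gave a median of -0.57 with 14 below 0 and Cx3cr1 as its 1 call by edgeR, against 6 by DESeq2. Csf1r was at 1138 and 1090.1 CPM in hypoxic monoculture and 748 and 704 CPM in hypoxic co-culture, with an interaction of -0.58 (SE 0.17) that missed the threshold (edgeR adjusted p = 0.084). Glioma RNA made up 2.07% and 2.36% of the hypoxic co-culture libraries. With that share subtracted, the median interaction was -0.44 for the microglia identity list and -0.55 for the myeloid markers. Further receptors with a lower effect, chosen after their values were seen, were Cd33, Cd244a, Cd300lb, Il6ra and Il10ra. The hypoxia effect was 3.07 without and 1.97 with glioma cells for Il10ra, and -0.06 and -0.89 for Il6ra.

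The HIF response was described by 2 lists. Of 26 HIF-regulated glycolysis genes kept, Aldoc, an aldolase, had a lower effect and 0 a higher one, against 1.14% and 0.944% of all genes kept, with a list median of -0.15. Aldoc went from 76.0 and 68.9 CPM to 576 and 560.3 CPM in monoculture and from 92.0 and 104 CPM to 419.9 and 455 CPM in co-culture (interaction -0.82, SE 0.16, edgeR adjusted p = 0.022). For the glucose carrier Slc2a1 the hypoxia effect was 3.84 without and 3.67 with glioma cells, a difference of -0.17 (SE 0.17, edgeR adjusted p = 0.636). Of 19 other HIF targets kept, 0 passed the test by edgeR, with the list median at -0.19. An unadjusted p under 0.05 by edgeR was reached by 1 of them upward and 8 downward. The share of all genes kept at this unadjusted limit is not given here, so no excess is read from these counts. DESeq2 called 1 of the 19 upward and 3 downward, against 292 and 296 genes in all. Vegfa, the angiogenic growth factor, rose by 3.15 and 3.22 (interaction 0.07, SE 0.18, edgeR adjusted p = 0.875). Bnip3, a mitophagy receptor, had an interaction of -1.10 (SE 0.30) that did not pass the threshold (edgeR adjusted p = 0.0628).

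The growth-related lists are read against the 1.14% of all genes kept that had a lower effect. Of 55 ribosomal protein genes kept, 54 had an interaction below 0, with a median of -0.54, and Rps23 alone passed the test, and 33.92% of its exon words occur elsewhere, mainly in a pseudogene. By DESeq2 28 of the 55 had a lower effect, but DESeq2 called 296 genes lower in all, against 139 by edgeR. By edgeR with the glioma share subtracted 0 of the 55 had a lower effect. The median was then still -0.54 and the interaction of Rps23 still -0.75 (edgeR adjusted p = 0.0532). The list's median hypoxia effect was -0.21 in monoculture and -0.73 in co-culture. Among 46 nuclear respiratory chain genes, Cox6c and Cox7b had a lower effect (median -0.21), and neither passed the threshold with the glioma share subtracted, where their interactions were -0.69 (adjusted p = 0.0557 for Cox6c and 0.0589 for Cox7b) and the list median still -0.21. Among 22 mitosis genes kept, the kinase Aurkb and the centromeric histone Cenpa fell further in co-culture, with interactions of -0.92 and -0.66. Aurkb went from 119 and 105 CPM to 53.4 and 49.2 CPM in monoculture and from 104 and 112 CPM to 29.5 and 22.7 CPM in co-culture. The 20 histone genes kept had a median of -0.63 with 0 calls by edgeR or DESeq2. Of these, 6 had an unadjusted p under 0.05 by edgeR, all downward, with no share of all genes kept to set beside them.

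Gene length moved with these groups. The median interaction was -0.42 for genes with under 1000 bases of exon and -0.18, -0.04, 0.08 and 0.20 for each longer class up to over 8000 bases. Genes with a higher effect had a median exon length of 5995 bases and those with a lower effect 3657 bases, against 3857 bases for all kept. The log2 ratio of long to short genes was 5.05 and 5.17 in normoxic co-culture and 5.58 to 5.82 in the other 6 libraries. With trends of length and GC content removed from each library (an alternative added after seeing the data), 97 genes had a higher and 281 a lower effect. The UPR list then had 10 genes with a higher effect and a median of 0.65, the ISR list 4 and 0.37, and the immediate early list 4 with a lower effect. The ribosomal protein median was then -0.48, the myeloid marker median -0.43, the histone median -0.39 and the respiratory chain median -0.09. The part of RNA quality in these differences was not tested.

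**Figure D5:**
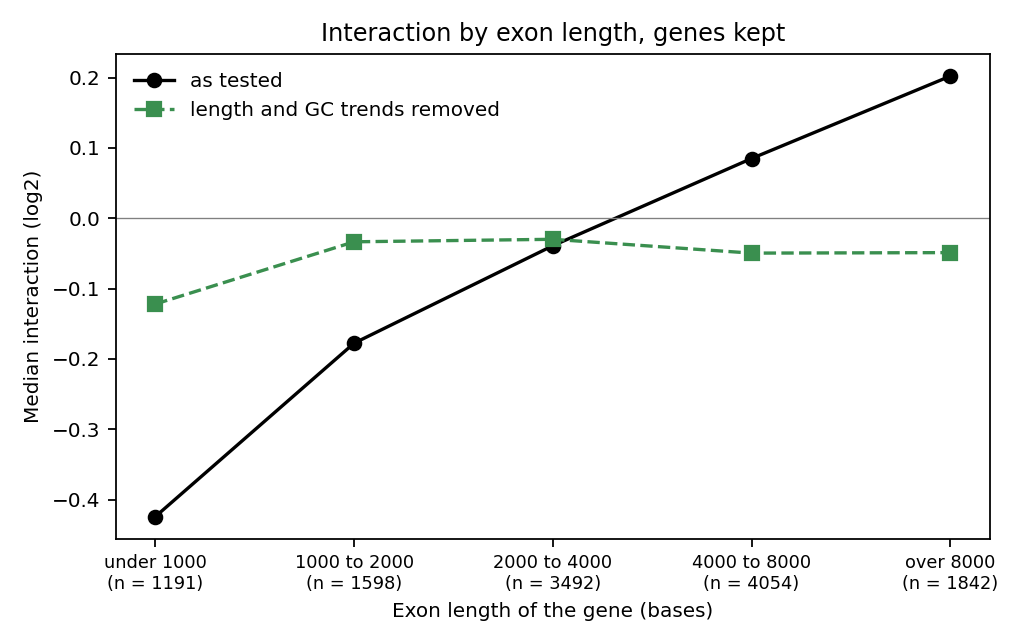
Median interaction of the genes kept (vertical axis, log2) by exon length in bases (horizontal axis, number of genes in brackets), as tested (solid) and with length and GC trends removed (dashed). The solid line climbs from -0.42 to 0.20, and the dashed line lies between -0.12 and -0.03.

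Libraries that the interaction did not use give 2 further views of the same genes. Bone marrow-derived macrophages (BMDM) had been grown alone (2 libraries per oxygen level) or with GL261 cells at 1 to 1 (3 per level). By edgeR the same interaction passed the threshold for 0 of 14806 genes in BMDM, 636 having an unadjusted p under 0.05, and for 8 genes by DESeq2. Of the 115 genes with a higher effect in BV2, 93 had a BMDM interaction above 0 (80.9%), against 42.8% of the 11086 genes kept that were tested in both. Of 133 genes with a lower effect, 21.8% lay above 0. An unadjusted p under 0.05 was reached upward by 7 of the 115 and downward by 0, and downward by 11 of the 133 and upward by 0, against 0.902% upward and 2.94% downward over all. Genes are not independent replicates, and the estimated glioma share in BMDM co-culture was also higher in hypoxia, 4.73% ± 2.87 (SD, n = 3) against 2.95% ± 1.43 (SD, n = 3). The BMDM interaction was 1.04 for Hspa5, 0.75 for Pdia4, 0.92 for Wars, -0.54 for Cd72 and -0.55 for P2ry6, but -0.03 for Aldh1l2. Among the 4 immediate early genes it was 0.41 for Zfp36, 0.57 for Btg2 and 0.31 for Junb, against -1.08 for Dusp2. Of the 22 immediate early genes kept, 11 lay above 0 in BMDM.

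A second hypoxia effect in BV2 monoculture came from 4 libraries of cells given the solvent DMSO. For 105 of the 115 genes with a higher effect the DMSO value lay nearer the monoculture effect than the co-culture effect, including all 47 enlarged rises, whose median effect was 0.91 in monoculture, 0.78 with DMSO and 1.74 in co-culture. For genes with a lower effect this held for 81 of 138, against 6954 of 11371 genes kept. It held for 11 of the 31 reduced rises, with medians of 2.18 in monoculture, 1.36 with DMSO and 1.02 in co-culture. It held for 11 of the 23 lost rises, with medians of 1.17, 0.42 and 0.08. Both the monoculture and co-culture values had chosen these genes. A DMSO value on the far side of the monoculture effect from co-culture also counts as nearer monoculture. The median effect of the UPR list was 1.65 in monoculture, 0.77 with DMSO and 2.53 in co-culture. For Hspa5 the values were 2.08, 1.16 and 3.25, and for Pdia4 2.16, 0.87 and 3.52. The DMSO set thus gave a smaller UPR rise than the first monoculture set. Among single genes, the DMSO effect was 2.03 for Zfp36 and -2.11 for Apobec1, close to 1.86 and -2.09 in monoculture. It was 0.92 for Cd72, between the monoculture and co-culture values, and 0.67 for Lilrb4a, below both. P2ry6 fell by DMSO value -1.04 (edgeR adjusted p = 0.0298), while -0.30 in the first monoculture set did not pass the test. For Fgd2 it was -2.26, nearer -2.56 in co-culture than -1.23 in monoculture. The rises lost by Mirt1, Osgin1 and Acod1 were 0.33, 0.32 and 0.10 with DMSO and did not pass the test there.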

How the data were processed

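RNA from 8 BV2 libraries of mouse BV2 and GL261 cultures was compared; 10 BMDM and 6 DMSO or panobinostat BV2 libraries served as further values. The authors deposited tables of whole-number read counts, 1 row per Ensembl gene, with no normalization recorded in the file headers. Per the labels' protocols, stranded poly(A) libraries were read as 151-base pairs. Per the submitters' processing notes, the tools were Trimmomatic 0.36, STAR 2.6, Picard 2.17.1, SAMtools, HTSeq 0.9.1 and deepTools, with build mm10. The gene annotation and the use of strand in counting are not given in the sources used here. Positions and exon lengths come from GENCODE vM21 (GRCm38, the same build), and symbols were found for 55141 identifiers.

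Counts entered edgeR 4.0.16 (R 4.3.3) and its quasi-likelihood F test, with TMM scaling, the default low-count filter (minimum count 10, total 15), a mean per group over the 8 libraries, and two-sided Benjamini-Hochberg adjusted p-values at a threshold of 0.05. Genes higher in GL261 were left out after adjustment. The SE is the log2 value divided by the square root of F. DESeq2 1.42.0 and mgcv 1.9.3 (length and GC trends) were used for alternatives. Scripts were tested on simulated data. Libraries of a group differed beyond counting noise (chi-square over degrees of freedom 7.88 to 25.9). Floors of 3 counts cover counting error only.

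Members of the 44 gene lists, and the question itself, were chosen with earlier results of these data known, so lists are described by counts and medians with no test. Genes named are the 15 largest interactions in each direction among genes whose log2 CPM averaged 3 or more, with hypoxia differences that do not overlap between culture forms, plus the genes past the threshold in a list. Other list members given as examples were chosen after their values were seen. The partner share is the median, over 230 genes, of a library's CPM relative to GL261 monoculture at the same oxygen level. Panobinostat effects were not analysed here. A gene that the naming rule picked is not reported here.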

Additional observations from a re-analysis of the deposited data

Results flagged for a closer look

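The BV2 hypoxia effect differed between co-culture and monoculture by the interaction test, which is what marks these results: 115 genes had a higher and 139 a lower effect. In 10 genes a fall in monoculture turned into a rise in co-culture, and in 14 a rise turned into a fall, each direction passing the test on its own. Cd83, an activation marker of antigen-presenting cells, is among the latter, at 9.73 and 10.5 CPM in normoxic and 13.4 and 15.2 CPM in hypoxic monoculture, and at 11.3 and 13.9 CPM and then 8.63 and 6.24 CPM in co-culture (interaction -1.26, SE 0.25, edgeR adjusted p = 0.0232).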

How the results depend on the processing

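Genes with a higher and a lower effect numbered 292 and 296 with DESeq2, 200 and 642 with no filter beyond 1 count, 75 and 233 among genes averaging 5 CPM or more, 31 and 21 with all 16 BV2 and GL261 libraries in 1 fit, and 50 and 82 with the partner share subtracted, in each case against 115 and 139. With length and GC trends removed, 281 had a lower effect. With a replicate block they numbered 176 and 209, and all 254 genes remained. Same-numbered libraries correlated at -0.081 to 0.17. With 2 libraries per group such correlations cannot settle whether the numbers pair the libraries, which the labels do not state. Leaving out each library gave 4 to 137 and 30 to 452 genes. For the UPR list, leaving out each library gave 1 to 15 genes, no filter 15, the fit of 16 libraries 5 and the subtraction 5. For the ISR list leaving out each library gave 2 to 3, DESeq2 9, the limit of 5 CPM gave 2, and the fit of 16 libraries and the subtraction 2 each. For the immediate early list leaving out each library gave 1 to 6 and the fit of 16 libraries 1. Other settings (DESeq2 size factors, other fold rules or none, leaving GL261-high genes out before adjustment) moved these counts by at most 1.5 times. Of 56 named genes, 0 changed direction in any setting, 10 passed the threshold in all of them and 21 in all that used every library. Where a library was left out, its group had 1 library, assumed to vary like the others. With 2 libraries per group, small differences cannot be seen, and genes of a few CPM are the least certain. The cause of these changes was not tested.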

Other observations

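Further single genes lost or gained a hypoxia effect within lists that otherwise held few calls. Over all genes kept, 0.944% had a higher and 1.14% a lower effect. Among 40 lysosomal genes kept, the protease Ctsh alone differed by edgeR: it rose from 52.8 and 52.2 CPM to 125 and 117 CPM in monoculture and from 67.6 and 75.6 CPM to 88.6 and 101.1 CPM in co-culture (interaction -0.80, SE 0.16, edgeR adjusted p = 0.0232). Among 23 cholesterol synthesis genes, Pmvk, a mevalonate pathway kinase, lost its rise (-0.83), and Acat2 (-0.84) fell further, although 33.93% of its exon words also occur elsewhere, mainly in Acat3. Osgin1, a target of the antioxidant factor Nrf2, lost its rise (-0.90). The chemokine Cxcl16 turned from a rise to a fall at 0.21 to 1.49 CPM, levels at which few reads decide (-3.04, SE 0.73, edgeR adjusted p = 0.0424). Cd52, a leukocyte surface peptide, was at 9.86 and 5.66 CPM in normoxic monoculture and 21.6 and 16.3 CPM in normoxic co-culture, while its hypoxic levels of 8.07 to 10.1 CPM overlapped (interaction -1.35). Acat2, Osgin1, Cxcl16 and Cd52 missed the threshold with the glioma share subtracted. The estimated glioma part of their hypoxic co-culture counts was 0.703% for Acat2, 0.504% for Osgin1, 1.15% for Cxcl16 and 0.0156% for Cd52. Neurl1b, a ubiquitin ligase of the Notch pathway, was at 18.0 to 23.7 CPM in all monoculture libraries, at 11.8 and 16.0 CPM in normoxic co-culture and at 4.45 and 4.61 CPM in hypoxic co-culture (-1.47). The long noncoding RNA Mirt1 lost its rise (-1.38), and Aunip, a partner of the kinase Aurka, fell further (-1.34).

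Of the 43 lists with genes kept, 23 held 0 genes past the threshold by edgeR. They hold 354 genes, of which 28 had an unadjusted p under 0.05 with a higher effect and 51 with a lower one. The share of all genes kept at this unadjusted limit is not given here, so no excess is read from these counts. The medians of the 23 lists ran from -0.63 (histone genes) to 0.14 (oxygen-dependent dioxygenases). By DESeq2, which called 292 genes higher and 296 lower in all, some of these lists did hold calls. Examples were 4 of 39 DNA replication genes with a lower effect and 2 of 33 ribosome biogenesis genes with a higher one. Among the genes kept, cytokines (11), interferon-stimulated genes (13), complement (12) and MHC class II (5) held 0 by either tool. Of the 36 interferon-stimulated genes tested, 23 had been left out as higher in GL261, so most of that list is not described here.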
